A study of Homo sapiens with 10 samples.

Results

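CXC chemokines are small secreted proteins with a CXC cysteine motif near the amino terminus that guide cell migration through G-protein-coupled receptors. Those with an ELR (Glu-Leu-Arg) motif before the cysteines act mainly on CXCR1 and CXCR2 and are known to attract neutrophils, and in fibroblasts they are familiar members of the senescence-associated secretory programme. CXCL10 is induced by interferon and acts on CXCR3, CXCL12 holds and guides cells through CXCR4, and ACKR3 is an atypical receptor that takes up CXCL12 and CXCL11 and signals mainly through arrestins. The 10 genes described here are the ELR chemokine genes CXCL1, CXCL2, CXCL3, CXCL5, CXCL6 and CXCL8, the non-ELR genes CXCL10, CXCL12 and CXCL16, and ACKR3. Every probe set to which the platform annotation assigned exactly 1 of these symbols was taken, which gave 18 of the 54613 non-control probe sets, for 10 of the 19775 genes that had such a probe set.

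The arrays compared cultured IMR90 cells, a line of normal diploid fibroblasts, in 2 states. The 5 proliferating samples were at 28 population doublings. The 5 senescent samples were at 90, had been passaged until they no longer divided and were then kept in dishes for another 2 weeks. All cells grew in 10% FBS at 3% oxygen, the labels name no genetic manipulation, and growth state and passage number cannot be told apart. Nothing in the labels ties the samples of a group to separate cultures, so the p-values below cover only how much these samples varied, and that variation may be technical. The loss of lamin B1 named in the series title was present: LMNB1 in senescent cells was lower by a factor of 45.6 (adjusted p = 1.1e-08 by limma), and CDKN2A, whose product p16 was a criterion of senescence in the labels, was 9.20-fold higher (limma's adjusted p = 0.00021). All 12 fibroblast markers examined lay above the array's 60th percentile on every array. Between the states 4 of them rose, among them LUM by 1.49, and 5 fell, among them FAP (-1.69). With 1 probe set per gene, 19.4% of all genes were higher and 18.6% lower. Of 9 leukocyte markers none lay above the 60th percentile on any array, with the pan-leukocyte gene PTPRC at 3.16 and 3.21. The mean log2 value over that list was 2.40 to 2.43 on proliferating and 2.41 to 2.49 on senescent arrays. Of 8 endothelial markers only TEK was above that percentile on all arrays of a group, and it rose by 0.62, with a mean over the list of 3.27 to 3.35 on proliferating and 3.39 to 3.45 on senescent arrays. Of 8 epithelial markers EPCAM, KRT18, KRT19 and SFTPC were above it on all arrays of at least 1 group. EPCAM fell from 6.49 to 4.18 (limma's adjusted p = 4.8e-06), KRT19 and KRT18 fell (-1.26 and -0.46) and SFTPC rose by 0.34, with a list mean of 4.79 to 4.86 on proliferating and 4.26 to 4.46 on senescent arrays. The part of these markers in the results below was not tested.

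The ELR genes lie together in the genome, and in the RefSeq table the protein-coding order is CXCL8, CXCL6, PF4V1, CXCL1, PF4, PPBP, CXCL5, CXCL3 and CXCL2. CXCL10 lies in a second group of genes between CXCL9 and CXCL11, with ART3 beside it. RefSeq promoter sequences of assembly GRCh38.p14, 250 bases before and 50 after the annotated start, were matched for 8 of the 10 genes (all but CXCL16 and ACKR3). They are shown because the 6 ELR genes, which differ in whether they gave signal on these arrays, share a single short motif. The letters GGAATTTCC, a binding sequence of the transcription factor NF-kB, occurred on either strand in 7 of the 8 promoters. Of all 35116 promoters of this length 0.461% held them. The promoters are shown for sharing this motif, and several are close copies of each other, as given below. The count is therefore not a test against that share. The stretches of 60 bases around the motif, which is in capitals, read 5′ to 3′ on the gene's strand as follows.
CXCL8: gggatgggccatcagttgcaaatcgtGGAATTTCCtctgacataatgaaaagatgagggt
CXCL6: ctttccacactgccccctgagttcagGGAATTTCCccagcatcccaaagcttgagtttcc
CXCL1: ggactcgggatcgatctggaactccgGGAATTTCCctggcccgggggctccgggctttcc
CXCL5: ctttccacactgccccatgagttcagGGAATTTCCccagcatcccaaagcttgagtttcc
CXCL3: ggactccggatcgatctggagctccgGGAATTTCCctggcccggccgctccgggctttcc
CXCL2: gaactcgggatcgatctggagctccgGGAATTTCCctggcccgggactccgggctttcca
In the order printed, these lie at chr4:73740452-73740511, chr4:73836563-73836622 and chr4:73869289-73869348 on the plus strand, and at chr4:73998734-73998793, chr4:74038734-74038793 and chr4:74099239-74099298 on the minus strand. The motif began at position -91 in CXCL8, -89 in CXCL6, -90 in CXCL5, -78 in CXCL1 and CXCL3, and -77 in CXCL2, counted from the annotated start as 0. The stretches of CXCL5 and CXCL6 were 98.3% identical. Those of CXCL1, CXCL2 and CXCL3 were alike too, at 93.3% between CXCL1 and CXCL3, 81.7% between CXCL1 and CXCL2 and 80% between CXCL2 and CXCL3, whereas CXCL8 matched the others at 30% to 41.7% of bases.

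The promoter of CXCL10 held the motif on the other strand (GGAAATTCC as read on the gene's strand, from position -176). Upstream of it, from position -221, was a match to 2 copies of GAAA with any 2 bases between them, the core of the interferon-stimulated response element, which 3.57% of all promoters held on either strand. The stretch of 78 bases with both matches in capitals lies at chr4:76023653-76023730 on the minus strand.
CXCL10: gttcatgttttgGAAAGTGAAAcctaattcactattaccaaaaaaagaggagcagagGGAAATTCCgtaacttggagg
The NF-kB consensus, a looser pattern of 10 bases that overlaps the motif above and that 5.91% of all promoters held on either strand, matched CXCL1, CXCL2, CXCL3, CXCL5, CXCL6 and CXCL10 but not CXCL8 or CXCL12. In CXCL10 it had a second match from position -122. Neither GGAATTTCC nor the GAAA pattern was found in the promoter window of CXCL12. These matches describe letters in a window and were not tested for binding.

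Among the 10 genes CXCL1, CXCL8, CXCL10 and ACKR3 were higher in senescent cells, CXCL12 was lower, and CXCL2, CXCL3, CXCL5, CXCL6 and CXCL16 gave low values in both states with no difference that passed. Of the 18 probe sets 6 were higher, 2 were lower and 10 did not pass limma's adjusted threshold of 0.05. Over all probe sets of the array 15.7% were higher and 14.8% lower by the same rule (30.5% in all), so a call as such was common in this comparison. Called differences of at least 4-fold numbered 2 of the 18 probe sets in the higher direction, CXCL10 and ACKR3. The lower direction also had 2, both of the single gene CXCL12. Over all probe sets 1.44% and 1.9% had such calls in these directions. The values of the groups did not overlap in 7 probe sets that were higher and 2 that were lower in senescent cells, where 15.1% and 13% of all probe sets had no overlap in these directions. Of all calls on the array 51.6% were higher, and 35.9% when the arrays were centred on housekeeping genes. Of the 18 housekeeping genes used for this, 4 were themselves called higher and 8 lower, so that reference was not constant between the states. The median log2 difference was 0.06 over the 18 and 0.02 over all probe sets. The values fell into 2 kinds. In 7 probe sets of 5 genes every array of at least 1 group was above its array's 60th percentile (4.64 to 4.77, a mark of signal used here in place of detection calls), which held for 2 CXCL8, 1 CXCL1, 1 CXCL10, 2 CXCL12 and 1 ACKR3 probe set. CXCL10 and ACKR3 met this mark only through senescent arrays and CXCL12 only through proliferating arrays. A difference was thus part of how these were set apart, so calls among the 7 are not counted against a share. In the other 11 no array reached it, all values lay between 2.10 and 3.95, and 1 was called by limma, a probe set of ACKR3 that was higher by 0.08. A further 2 of them had an unadjusted p under 0.05, CXCL5 on 1 probe set (lower) and CXCL16 (higher). In bulk samples, fewer cells that carry a transcript and less transcript per cell cannot be told apart.

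**Figure D1:**
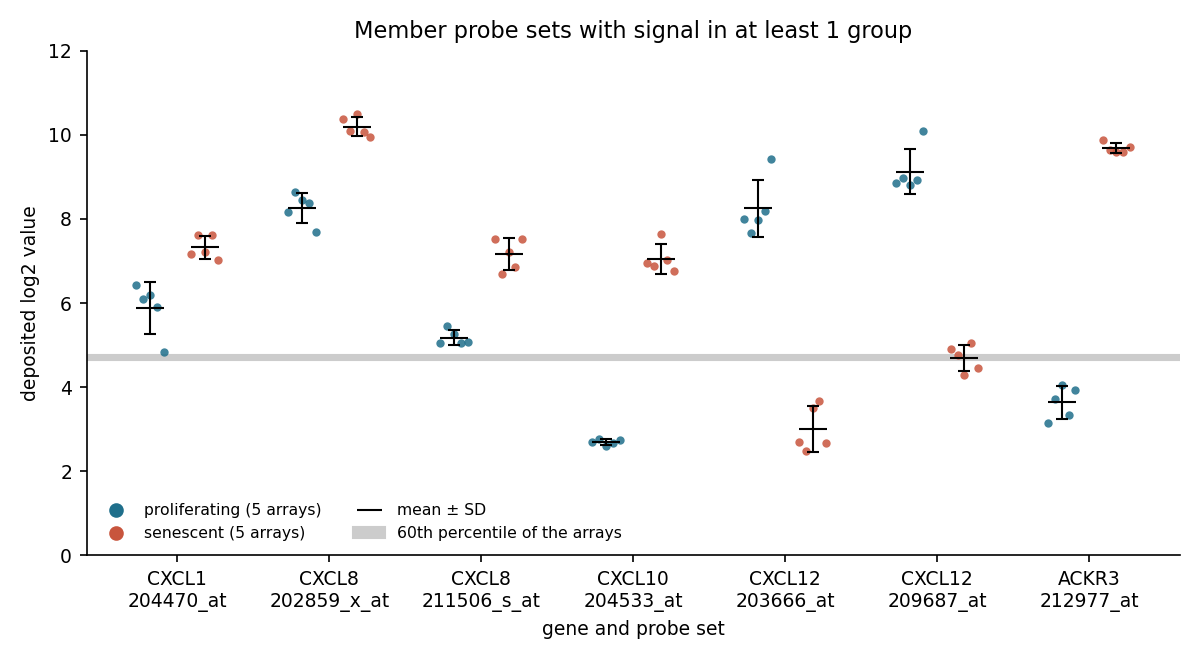
Deposited log2 values (y axis) of the 7 member probe sets with signal in at least 1 group, by gene and probe set (x axis), with 1 point per array, bars for mean ± SD (n = 5) and a grey band for the arrays' 60th percentile. The groups do not overlap in any of the 7. CXCL10, CXCL12 and ACKR3 met the mark of signal through only 1 group, so a difference was part of how they were set apart. The lack of overlap in the 7 is therefore not counted against a share. CXCL12 is the gene that is lower in senescent cells.

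CXCL8, the ELR chemokine also known as interleukin 8, was measured by a _x_at and a _s_at probe set, types whose sequence can be shared by related transcripts, and both gave nearly the same difference. On the _x_at probe set the log2 values were 8.16, 8.63, 8.44, 8.38 and 7.69 on proliferating arrays 1 to 5 and 10.38, 10.10, 10.49, 10.07 and 9.94 on senescent arrays 1 to 5. The lowest senescent array lay above the highest proliferating array. CXCL8 rose by 1.94 on this probe set (SE 0.18), which is 3.83-fold, with an adjusted p of 2.4e-05 by limma. The exact permutation p was 0.00794, two-sided, the smallest that the 252 assignments of arrays allow. On the _s_at probe set the values were 5.04, 5.45, 5.27, 5.04 and 5.06 in proliferating and 7.52, 6.69, 7.22, 6.86 and 7.53 in senescent cells. The groups again did not overlap, and CXCL8 rose by 1.99 (SE 0.18, 3.98-fold, limma's adjusted p = 1.8e-05).

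CXCL1, an ELR ligand of CXCR2, was measured by a single probe set. Its log2 values were 6.44, 6.09, 6.20, 5.89 and 4.84 in proliferating cells and 7.18, 7.62, 7.22, 7.62 and 7.02 in senescent cells. All senescent arrays were higher than all proliferating arrays, and array proliferating 5 was the lowest of the 10. CXCL1 rose by 1.44 (SE 0.29), 2.71-fold, with limma's adjusted p = 0.0035, and by 1.18 without proliferating 5 (limma's adjusted p = 0.00059). Of 2 control transcripts read for RNA integrity, the 3' minus 5' difference of ACTB had a mean of 2.07 ± 0.14 on proliferating arrays and 2.32 ± 0.10 on senescent arrays (SD, n = 5 each; exact permutation p = 0.00794, two-sided). That of GAPDH was -0.03 ± 0.18 and 0.12 ± 0.09, a difference of 0.15 that did not pass (exact permutation p = 0.135, two-sided). With the ACTB difference as a covariate CXCL1 differed by 1.38 and did not pass (limma's adjusted p = 0.073). CXCL8 then rose by 1.87 and 2.00 on its 2 probe sets (limma's adjusted p = 0.0018 and 0.0012). The ACTB differences of the groups did not overlap (1.85 to 2.19 in proliferating, 2.24 to 2.47 in senescent), so this covariate is largely confounded with state. With it 5947 probe sets of the array were higher and 6136 lower, against 8593 and 8063 without. A call lost with this covariate cannot be assigned to RNA quality.

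The other 4 ELR genes stayed low. CXCL2 had 3 probe sets, with values over all 10 arrays of 2.10 to 2.17 on the first, 2.32 to 2.38 on the second and 2.81 to 3.01 on the third, a _x_at probe set. Their differences were 0.03, 0.02 and 0.02, with 95% intervals of -0.0037 to 0.056, -0.014 to 0.046 and -0.086 to 0.12. None of the 3 passed. CXCL3, measured by 1 probe set, gave 2.81, 2.80, 2.83, 2.80 and 2.77 in proliferating and 3.95, 2.81, 2.87, 2.80 and 2.92 in senescent cells. A single array, senescent 1, stood above the other 9, and the difference of 0.27 (SE 0.21) did not pass (limma's adjusted p = 0.33). CXCL6, also with 1 probe set, lay between 3.11 and 3.43 on all arrays and differed by 0.09 (SE 0.05, limma's adjusted p = 0.21).

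CXCL5, also known as epithelial neutrophil-activating peptide, had 3 probe sets, of which the _at and _s_at ones gave differences of 0.04 and 0.02 that did not pass. The _x_at probe set gave 3.34, 3.76, 3.84, 3.46 and 3.81 in proliferating and 3.36, 3.22, 3.40, 3.39 and 3.35 in senescent cells. The groups overlapped through array proliferating 1. The difference of -0.30 (SE 0.10) just missed the threshold (limma's adjusted p = 0.052) and passed it without that array (-0.38, limma's adjusted p = 0.0077). The other CXCL5 probe sets differed in the opposite direction.

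**Figure D2:**
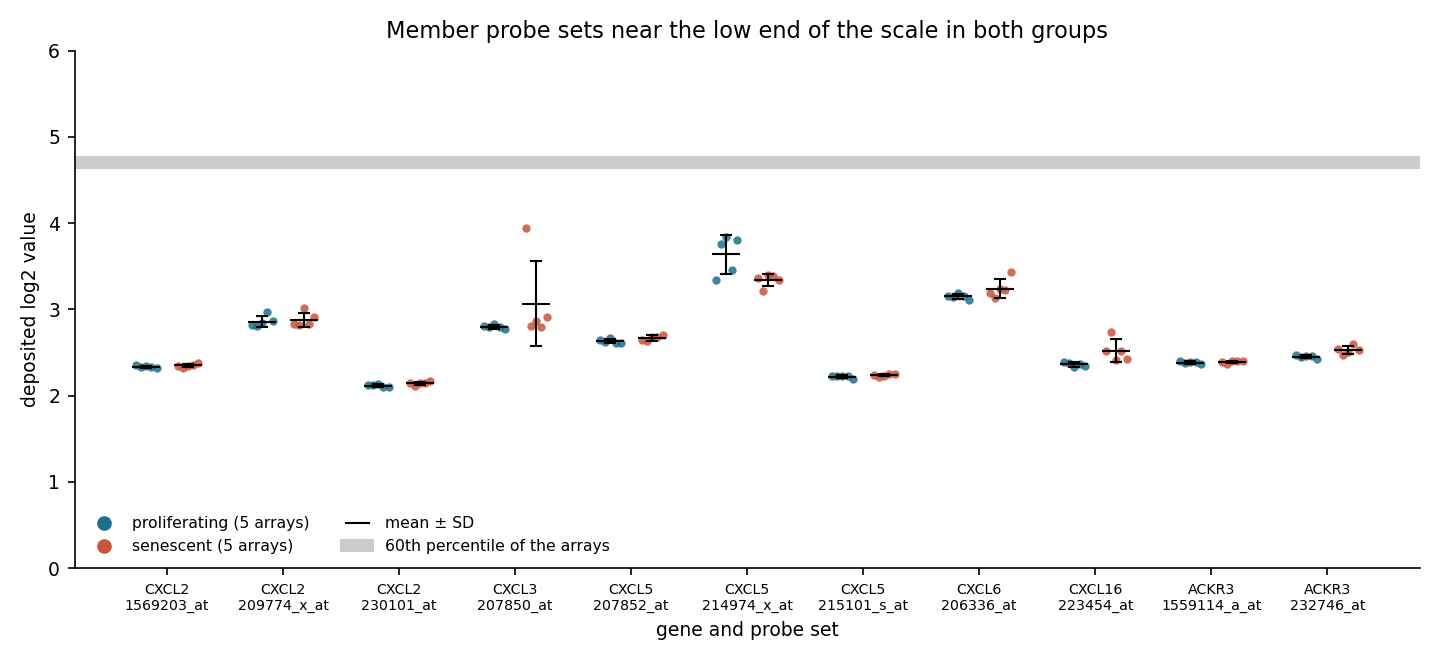
Deposited log2 values (y axis) of the 11 member probe sets without signal in either group (x axis), with 1 point per array, mean ± SD (n = 5) and the arrays' 60th percentile as a grey band. All points lie between 2.10 and 3.95, below the band, and the widest spread is that of CXCL3 through senescent array 1.

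CXCL10 showed the largest rise among the ligands. Its only probe set gave 2.70, 2.77, 2.60, 2.67 and 2.73 in proliferating cells and 6.95, 6.89, 7.65, 7.02 and 6.75 in senescent cells. The proliferating arrays were at the low end of the scale and every senescent array was more than 3 log2 units higher, with senescent 3 the highest. CXCL10 rose by 4.36 (SE 0.15), 20.5-fold, with limma's adjusted p = 3.6e-08. It was the 95th largest rise of the 54613 probe sets. Because proliferating values were without signal, the size of this fold depends on the background correction of the deposited values.

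Of the neighbours of CXCL10 that also act on CXCR3, CXCL11 rose less and CXCL9 stayed without signal. CXCL11 gave 3.00, 2.98, 3.02, 2.93 and 2.93 in proliferating and 4.48, 5.61, 6.03, 5.06 and 3.77 in senescent cells on its _s_at probe set. Every senescent array was higher, but with a wide spread, and senescent 3 was the highest as it was for CXCL10. CXCL11 rose by 2.02 (SE 0.38, limma's adjusted p = 0.0025), and with the ACTB covariate it differed by 1.65 and did not pass (limma's adjusted p = 0.092). A further CXCL11 probe set differed by 0.56, which missed the threshold. CXCL9 differed by 0.05 and did not pass. The receptor gene CXCR3 was without signal on both its probe sets, which differed by 0.01 and 0.0031.

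CXCL12, the stromal chemokine that fibroblasts are known to secrete, fell on both of its probe sets. On the probe set with the higher signal the values were 8.85, 8.97, 8.81, 8.91 and 10.09 in proliferating and 4.90, 4.77, 4.28, 5.05 and 4.45 in senescent cells. On the other they were 7.99, 7.68, 7.98, 8.20 and 9.43 against 2.69, 2.48, 3.50, 3.67 and 2.68. Proliferating 5 was the highest array on both, and the groups were separated by more than 3 log2 units on each. CXCL12 fell by 4.43 on the first (SE 0.26), 21.6-fold lower, and fell by 5.25 on the other (SE 0.37), 38.1-fold lower (limma's adjusted p = 1.2e-06 and 3.4e-06). Senescent values on the latter were without signal, so its fold depends on the background correction. Without proliferating 5 the differences were -4.19 and -4.96, and with the ACTB covariate they were -4.19 and -5.48 (limma's adjusted p = 0.00014 and 0.00022).

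CXCL16, a membrane-bound chemokine that ADAM10 sheds and CXCR6 recognises, was without signal. Its values were 2.40, 2.38, 2.33, 2.37 and 2.34 in proliferating and 2.52, 2.74, 2.41, 2.51 and 2.43 in senescent cells on its only probe set. The groups did not overlap, yet the difference of 0.16 (95% interval 0.03 to 0.29) did not pass limma's threshold (adjusted p = 0.065), and 15.1% of all probe sets were higher without overlap. The shedding protease gene ADAM10 differed by 0.08 on the probe set with its highest signal and did not pass, while on its _x_at probe set it rose by 0.42.

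ACKR3 had the largest difference of the 10 genes. On the probe set with signal its values were 3.16, 3.71, 4.04, 3.33 and 3.94 in proliferating and 9.88, 9.64, 9.59, 9.59 and 9.71 in senescent cells. The senescent arrays lay within 0.3 of each other and more than 5 log2 units above every proliferating array. ACKR3 rose by 6.05 (SE 0.17), 66.1-fold, with limma's adjusted p = 1.1e-08, the 21st largest rise of all probe sets, and by 6.09 with the ACTB covariate. As for CXCL10, proliferating values were without signal, so the fold depends on the background correction. Its other probe sets did not show a rise of this size. A second probe set, without signal, gave 2.43 to 2.47 in proliferating and 2.47 to 2.60 in senescent cells (0.08, limma's adjusted p = 0.026), and the third, of type _a_at, was 0.0082 apart between the groups and did not pass. The call on the second was lost without proliferating 2, 4 or 5 or senescent 1 (limma's adjusted p = 0.050 to 0.062) and with the ACTB covariate (0.07, limma's adjusted p = 0.25). The probe sets of a gene can target different parts of its transcripts, and where these lie is not given in the sources used here.

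**Figure D3:**
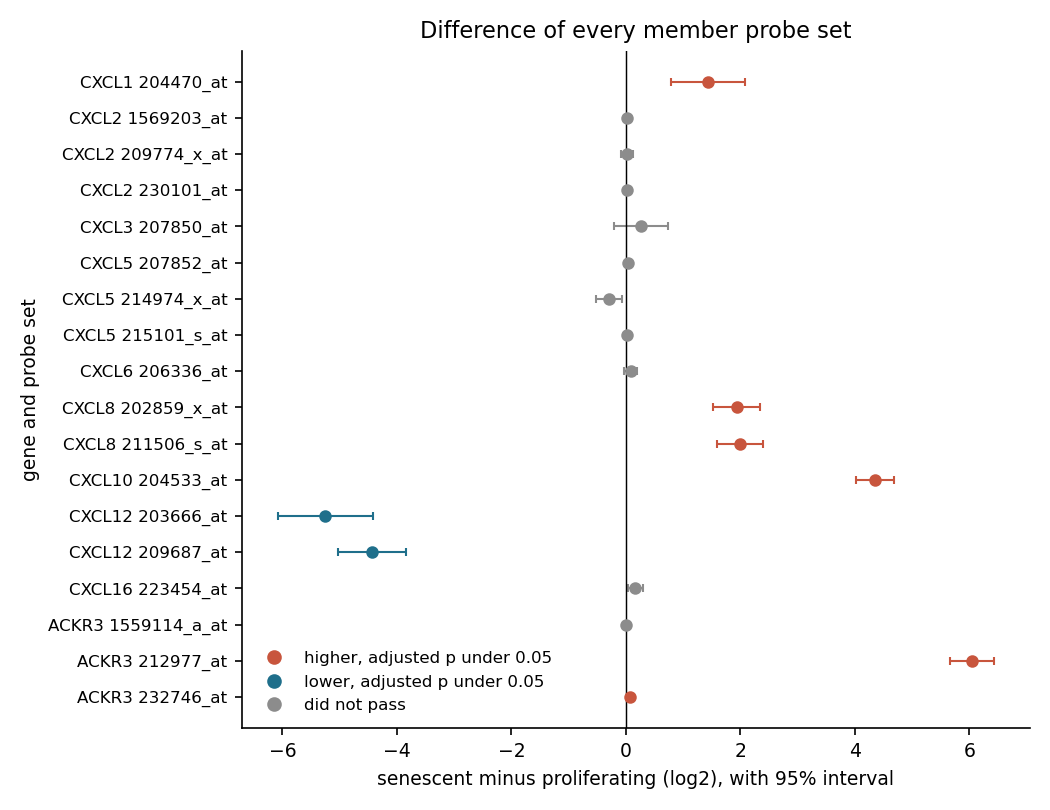
Senescent minus proliferating log2 difference (x axis) of all 18 member probe sets (y axis) with 95% intervals from the limma fit, coloured by call. CXCL1, CXCL8, CXCL10, CXCL12 and ACKR3 lie away from 0, and probe sets of the same gene agree for CXCL8 and CXCL12 but not for ACKR3.

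The 2 receptors of CXCL12 thus had a probe set that moved opposite to the ligand. CXCR4, the signalling receptor, gave 2.40, 2.40, 2.40, 2.42 and 2.37 in proliferating and 6.54, 6.24, 6.96, 6.84 and 6.84 in senescent cells on 1 of its probe sets. It rose by 4.29 (SE 0.12), 19.5-fold, with limma's adjusted p = 1.2e-08, from proliferating values without signal, so this fold too depends on the background correction. The remaining CXCR4 probe sets, a _x_at and a _s_at one, differed by 0.04 and 0.05 and did not pass, so a large rise was seen on 1 of 3 CXCR4 probe sets, as it was for ACKR3. DPP4, a membrane peptidase that shortens CXCL10 and CXCL12 at the amino terminus, rose by 2.46, 2.39 and 2.64 on its 3 probe sets, 5.51-fold on the probe set with the highest signal (SE 0.09, limma's adjusted p = 7.1e-08). Its values on that probe set were 9.93, 9.47, 9.81, 9.94 and 9.85 against 12.29, 12.27, 12.36, 12.30 and 12.08.

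The wider chemokine system was read from lists with 1 probe set per gene, of which 19.4% were higher and 18.6% lower over the whole array, with a median difference of 0.02. Of 20 chemokine receptor genes 2 rose, CXCR4 and the scavenger of CC chemokines ACKR4, and none fell (list median 0.02). ACKR4 differed by 1.37, with no proliferating array and 1 of 5 senescent arrays above the 60th percentile. CXCR1 and CXCR2, the receptors of the ELR ligands, differed by 0.02 each without signal. Of 10 other CXC, XC and CX3C ligands 2 rose, CXCL11 and CXCL14, and none fell (list median 0.05). Both were without signal on every proliferating array and above the 60th percentile on 3 of 5 senescent arrays, CXCL14 with a difference of 1.97. PF4V1, PF4 and PPBP, which lie among the ELR genes, differed by 0.05, 0.02 and 0.06 and did not pass. Of 20 CC ligands none rose and 1 fell: CCL2, the monocyte attractant, from 11.05 ± 0.20 to 8.43 ± 0.21 (SD, n = 5 each), 6.13-fold lower (adjusted p of 2.5e-07 by limma). CCL2 thus went opposite to CXCL8 and CXCL1.

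Among 8 genes that carry or end receptor signals 4 rose and 2 fell (list median 0.31). The receptor kinase gene GRK3 rose by 1.58, the inhibitory G-protein gene GNAI1 by 1.13 and the arrestin gene ARRB1 by 1.12, the last of which differed by 1.05 and did not pass with the ACTB covariate (limma's adjusted p = 0.082). Among 12 proteases that can process chemokines 4 rose and 1 fell (list median 0.06). Besides DPP4, stromelysin (MMP3) rose by 4.82 from values without signal, and the neprilysin gene MME fell by 2.39. MME on proliferating 5 was 10.24, against 11.26 to 11.35 on the other proliferating arrays.

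Genes around NF-kB, which binds the motif shown above, moved in both directions: of 26, 6 rose and 9 fell (list median 0.02). The subunit genes NFKB1 and REL fell (-0.64 and -1.10) and RELA rose by 0.23. TNFAIP3, a feedback inhibitor of NF-kB, fell from 6.59 ± 0.20 to 3.63 ± 0.23 (SD, n = 5 each), with limma's adjusted p = 1.4e-07, and the inhibitor gene NFKBIA fell by 1.17. The upstream cytokine gene IL1B fell by 3.29 (limma's adjusted p = 0.00070). Of the C/EBP genes CEBPB rose by 0.47 and CEBPD and CEBPG fell (-1.43 and -0.80). Of 20 genes of interferon signalling 10 rose, none fell and 10 did not pass (list median 0.50), among the last IRF3 (-0.43). The factor genes IRF1 and IRF9 rose by 3.32 and 1.54, and the interferon-stimulated genes ISG15 and IFIT3 by 2.55 and 2.27. The interferon-responsive gene GBP1 differed by 0.06 and did not pass, and IFNB1, the gene of interferon beta, was without signal. These members were named partly after their values were seen (NFKB1, REL, RELA, NFKBIA, CEBPB, CEBPG, IRF9, IRF3, GBP1 and IFNB1).

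**Figure D4:**
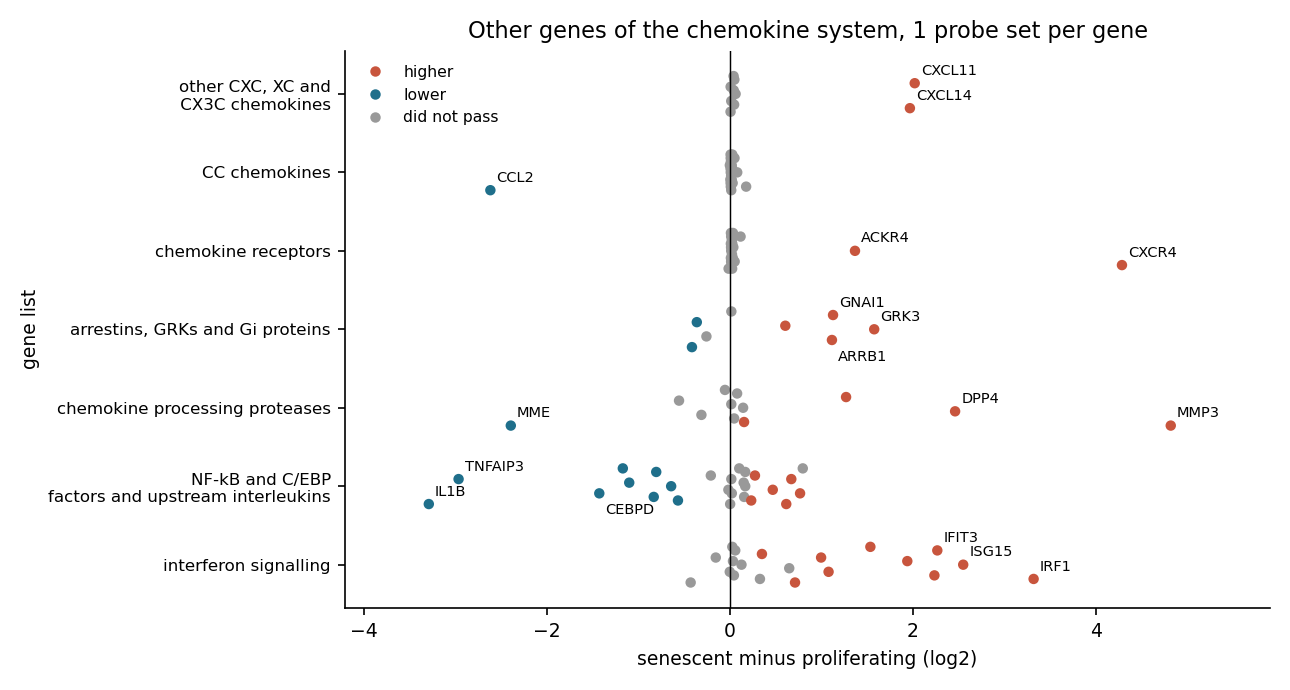
Senescent minus proliferating log2 difference (x axis) of each gene in 7 lists of the chemokine system (y axis), 1 probe set per gene, coloured by call, with up to 3 called genes of largest difference named. Most other ligands and receptors lie at 0, the NF-kB list spreads to both sides and called interferon genes lie on the right.

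Array proliferating 5 stood apart in several of these genes, in a direction that differed between them. Relative to the mean of proliferating 1 to 4, it was higher for CXCL12 (1.20 and 1.47 on the 2 probe sets) and lower for CXCL1 (-1.31). For CXCL8 its difference was -0.71 on the _x_at probe set and -0.14 on the _s_at probe set, where it lay within the range of the other 4. CXCL10 and ACKR3 on this array also lay within the range of the others. IL1B, IL6, MME and CCL2, chosen here after their values were seen, differed by -2.60, -1.66, -1.06 and -0.40. Between the states IL6 fell by 1.84 (SE 0.35), 3.57-fold lower (limma's adjusted p = 0.0028), opposite to CXCL8 and CXCL1. Its groups overlapped through proliferating 5, at 5.58 against a highest senescent value of 5.64. Over 20909 probe sets with signal on all proliferating arrays, proliferating 5 stood apart from the other 4 by Dixon's criterion in 2.94%, proliferating 2 in 2.97% and the others in 0.607% to 0.717%. Among senescent arrays, over 20894 probe sets, senescent 5 stood apart in 4.65%, the most of all 10 arrays, senescent 3 in 1.55% and the others in 0.66% to 0.732%. What differed about this sample is not stated in the labels.

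**Figure D5:**
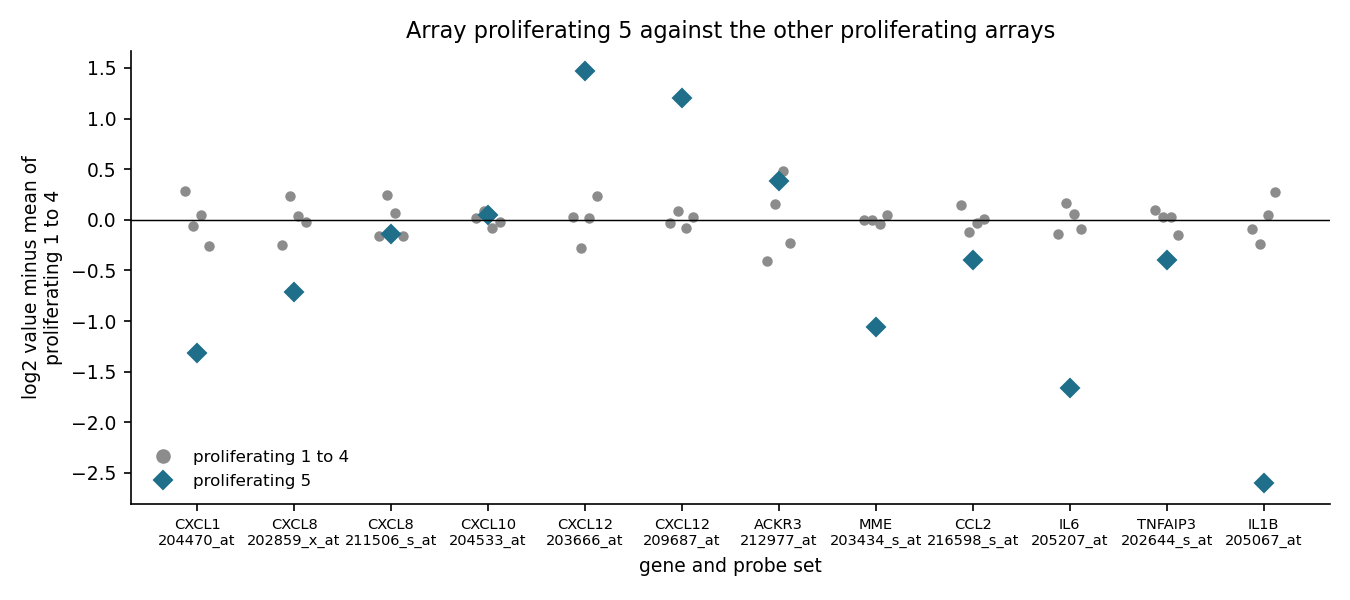
Log2 value minus the mean of proliferating arrays 1 to 4 (y axis) for 12 probe sets (x axis), with array proliferating 5 as a diamond and the other proliferating arrays as grey points. CXCL12 is above and CXCL1, IL1B and IL6 are below the other 4 arrays on proliferating 5, while CXCL10 and ACKR3 lie among them.

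Likeness of pattern was measured by Pearson's r over the 10 arrays after subtracting each group's mean. Whether arrays shared a processing batch is not given in the sources used here, and with so few arrays the highest values over all probe sets are high by selection. The closest probe sets to CXCL8 (_x_at) were those of ZEB1, AK4 and USP9X (r of 0.98, 0.97 and 0.96). For CXCL10 they were DPH7, PLA2R1 and LINC01588 (0.98, 0.97 and 0.97), for CXCL12 (higher-signal probe set) SDAD1, PITPNC1 and CEP43 (0.96, 0.95 and 0.95), and for ACKR3 (probe set with signal) LIPH, RPP14 and KIF21A (0.95, 0.94 and 0.94). Of the 12, ZEB1, AK4, USP9X and LIPH were also higher and CEP43 also lower in senescent cells, in the direction of the gene they resembled. CXCL12 on this probe set was at 10.09 on proliferating 5 (other proliferating arrays 8.81 to 8.97). Its r values therefore rest in part on that single array.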

How the data were processed

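Total RNA of 10 IMR90 samples was hybridised to Affymetrix expression arrays, 5 proliferating and 5 senescent. The deposited table gives log2 values for 54675 probe sets. The scale was read from their range (0.62 to 16.2), and Partek and GCRMA are listed, without version, role or order, in the submitters' processing notes. How background was corrected is not stated. Values were not centred (array medians 3.05 to 3.12), so their centring is that of the authors. Replicate arrays correlated at 0.996 to 0.998. No detection calls, scan dates or scanner files were used.

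The 62 control probe sets were left out. Platform annotation gave 1 symbol to 41091 probe sets, several to 1801 and none to 11721. For 41037 of those with 1 symbol, the RefSeq symbol of the gene identifier was used, whether or not it differed. Members were picked by the platform's own symbol. All 54613 probe sets, unfiltered so that no member was lost, were fitted with limma 3.58.1 (R 4.3.3; lmFit, then eBayes), two-sided, with Benjamini-Hochberg adjustment over all of them. SE and 95% intervals come from that fit. Rose and fell are used for calls at 0.05. Lists used each gene's probe set with the highest mean, and list genes without a probe set of 1 symbol were not analysed here. Named genes were all members, LMNB1, CDKN2A, up to 3 called genes of largest difference per list and 3 closest patterns for 4 members. Other genes were named outside that rule, for their role or position (receptors, neighbouring genes, marker genes) or after their values were seen. The members, lists and alternatives were chosen with earlier results of these data known. Alternatives were 2 filters, 3 scalings, array weights, a trended robust eBayes, the replicate number as a block, removal of shared probe sets, the ACTB covariate and leaving out each array. Simulated data of 5 against 5 arrays over 54613 probe sets held 50 changed probe sets per size of change. In them 40% of changes of 0.5, 80% of 1, 98% of 2 and 100% of 4 (log2) were called. Of 171 calls 12 were false. In the measured comparison 16656 probe sets (30.5%) were called. The adjustment depends on how many probe sets pass, so it was stricter in the simulation. These rates therefore do not give the sensitivity or the share of false calls of the measured comparison. Having 5 arrays per group limits the precision. Figures were drawn with matplotlib 3.10.9 in Python 3.11.15.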

Additional observations from a re-analysis of the deposited data

Results flagged for a closer look

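An array was singled out where its gap to the nearest other array of its group exceeded Dixon's 95% limit for 5 samples, which chance alone passes in about 1 of 20 groups, and 74 groups were examined. Among the members, CXCL3 was at 3.95 on senescent 1 (others 2.80 to 2.92), CXCL12 (higher-signal probe set) at 10.09 on proliferating 5 (others 8.81 to 8.97), and CXCL5 on the _s_at probe set at 2.20 on proliferating 5 (others 2.23), the last without signal on any array. Proliferating 5 was also apart for MME at 10.24 (others 11.26 to 11.35) and for IL1B at 4.38 (others 6.75 to 7.26). Proliferating 2 was apart for DPP4 at 9.47 (others 9.81 to 9.94) and for IFIT3 at 6.33 (others 6.87 to 7.07).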

How the results depend on the processing

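Over the 20 alternatives, or those that still tested the probe set, CXCL8, CXCL10, CXCL12 and ACKR3 (probe set with signal) kept direction and call: CXCL8 differed by 1.79 to 2.03 and 1.85 to 2.11, CXCL10 by 4.16 to 4.43, CXCL12 by -5.48 to -4.96 and -4.57 to -4.19, and ACKR3 by 5.91 to 6.15. CXCL1 (1.18 to 1.57) lost its call only with the ACTB covariate, which is largely confounded with state. Higher member probe sets numbered 5 to 8 and lower ones 2 to 3 when each array was left out. Over all probe sets 7771 to 11874 were then higher and 7507 to 7986 lower, against 8593 and 8063 with all arrays. The 11874 came from leaving out senescent 2, and no other array left out gave more than 8402. The range of the member counts is therefore not particular to these genes. Pathway list genes called numbered 41 of 116, 39 to 49 when each array was left out, and 20 of 71 without shared probe sets, where fewer genes were tested. Centring on housekeeping genes moved the median of all probe sets by -0.14 and the share of calls that were higher from 51.6% to 35.9%. That list was not constant between the states, with 4 of its 18 genes called higher and 8 lower. All reversals were members without signal. Under that centring they were CXCL2 (-0.12, -0.12 and -0.11), CXCL5 on the _at (-0.10) and _s_at (-0.12) probe sets, CXCL6 (-0.0503), and ACKR3 on the _a_at (-0.13) and the other low probe set (-0.0609). Under quantile normalisation they were CXCL2 on an _at (-0.0032) and the _x_at (-0.0064) probe set and ACKR3 on the _a_at probe set (-0.012). The same ACKR3 probe set was at -0.0068 when centred on all probe sets and -0.0089 with the ACTB covariate, and CXCL2 on the _x_at probe set at -0.0377 with that covariate and at -0.0150 (without senescent 3) to 0.0470 when each array was left out. The cause was not tested. CXCL16 passed under 4 alternatives and CXCL5 (_x_at) under 6. Same-numbered samples did not pair (correlation of deviations -0.06 to 0.08, and 2 of 5 senescent arrays correlated best with their own number). With the replicate block 7784 probe sets were higher and 7451 lower, against 8593 and 8063, 5 member probe sets were higher and 2 lower, and the low _at probe set of ACKR3 lost its call (adjusted p = 0.054). Array number and low signal limit what can be said of CXCL2, CXCL3, CXCL5, CXCL6 and CXCL16.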
